A study of Mus musculus with 6 samples.

Results

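Transcripts of 10 collagens and matrix glycoproteins were followed in bone marrow-derived macrophages (BMDMs). The set was given as a list of gene symbols: the fibrillar collagen chains *Col1a1*, *Col1a2* and *Col3a1*, the basement membrane collagen chains *Col4a1* and *Col4a2*, the glycoproteins *Fn1*, *Sparc* and *Thbs1*, and the macrophage glycoproteins *Spp1* and *Gpnmb*. All 10 were found among the 55335 gene identifiers of the expression table, and all 10 passed the filter on low values (an average over the libraries of 0.5 FPKM or more), as did 13367 genes in total, which were tested. FPKM are fragment counts scaled to transcript length and library size. BMDMs were grown from mouse bone marrow in 25 ng/ml M-CSF for 7 days and co-cultured for 24 h with neutrophils taken from the spinal cord lesion at 3 days post injury (dpi). Both groups used BMDMs labelled WT, and the groups differed in the neutrophil donors, which were *Cd177* WT or *Cd177* KO mice, with 3 libraries per group. All mice were adult males, the wild-type mice were of the C57BL/6 strain, and the spinal cord was contused. The strain background of the *Cd177* KO mice and the exons that they lack were not given in the sources used here.

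Several features limit these cultures as a model. Neutrophils were enriched with magnetic beads from injured tissue, and after co-culture the macrophages were sorted as Ly6G-negative cells, a gate that names no macrophage marker. There was no library of BMDMs cultured alone and none of the neutrophils, and the labels do not say whether the 3 libraries of a group came from separate cultures, so p-values measure the spread between these libraries, which may be technical. *Cd177* itself was listed at 1.79, 1.84 and 2.28 FPKM with neutrophils labelled KO and at 0.544, 0.309 and 0.521 FPKM with those labelled WT, which goes against the labels. The groups are therefore called WT-labelled and KO-labelled throughout, and every direction below is that of the labels.

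Fibrillar collagens are made as procollagen chains that fold into a triple helix in the endoplasmic reticulum, where prolines and lysines are hydroxylated, and are trimmed and cross-linked outside the cell. Type IV collagen forms the sheet-like network of basement membranes, while fibronectin, thrombospondin-1 and SPARC bind collagens, growth factors and cell surface receptors. Fibroblasts, pericytes and other stromal cells are the usual sources of types I and III collagen, and in the injured spinal cord such cells build the fibrotic part of the scar. Macrophages are a known source of fibronectin, thrombospondin-1, osteopontin (*Spp1*) and GPNMB, and *Spp1* together with *Gpnmb* marks macrophages that handle lipid and debris after tissue injury.

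The promoters of *Col3a1* and *Spp1* are shown because *Col3a1* was the member with the lowest adjusted p and *Spp1* the most abundant one. Each line gives the 250 bases upstream of the RefSeq start site on the plus strand (GRCm38.p6), chr1:45311288-45311537 for *Col3a1* and chr5:104434861-104435110 for *Spp1*. Capitals mark matches, on either strand, to the letters TATAAA of the TATA box, to CCAAT of the box named after it, to the GC box with its letters GGGCGG, and to the AP-1 site, which reads TGACTCA.
Col3a1: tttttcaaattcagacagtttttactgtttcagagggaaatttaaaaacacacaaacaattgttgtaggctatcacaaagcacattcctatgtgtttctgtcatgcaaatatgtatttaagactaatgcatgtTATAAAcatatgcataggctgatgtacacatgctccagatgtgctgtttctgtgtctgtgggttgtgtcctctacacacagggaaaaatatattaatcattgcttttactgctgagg
Spp1: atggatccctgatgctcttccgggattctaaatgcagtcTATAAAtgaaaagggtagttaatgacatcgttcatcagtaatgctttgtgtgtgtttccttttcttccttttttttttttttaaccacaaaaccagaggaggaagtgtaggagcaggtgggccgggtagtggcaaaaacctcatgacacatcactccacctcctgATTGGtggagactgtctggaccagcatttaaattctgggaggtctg
*Col3a1* held TATAAA at 117 to 112 bases before the start. *Spp1* held TATAAA at 211 to 206 bases before the start and CCAAT on the minus strand at 46 to 42 bases before it. Among 32851 promoter windows of the same length from 27025 genes, the TATA box letters occurred in 12.4%, those of the CCAAT box in 33.8%, of the GC box in 32.7% and of the AP-1 site in 4.46%. Neither window overlapped an annotated exon, and 7 of the 10 members had an entry in the promoter table. These matches describe the letters only.

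The matrix transcripts were abundant in these sorted macrophages. The median over the 10 members was 222 FPKM, against 5.20 FPKM over all tested genes, both taken from each gene's mean over 6 libraries. *Spp1* ranked 9th of all tested genes by mean FPKM, *Gpnmb* 35th, *Thbs1* 43rd and *Col1a1* 103rd. *Col4a2* was the lowest member at rank 2009. All 17 macrophage markers examined were tested, with 6 higher (35.3%) and 4 lower (23.5%) in the KO-labelled libraries, beside 27.1% and 10.5% of all tested genes. The markers summed to 6979 to 8342 FPKM against 7775 to 8473 FPKM, most of it *Lyz2*, which neutrophils share. After median-of-ratios scaling 4 were higher and 5 lower. *Cd14*, a receptor for bacterial lipopolysaccharide, fell by 3.33 (log2, limma adjusted p = 6.82e-06) and the scavenger receptor *Marco* by 2.48 (limma adjusted p = 4.83e-05), while *Maf* rose by 1.89 (limma adjusted p = 1.13e-05). *Cd163*, a haemoglobin scavenger receptor, was at 0.0820 to 0.166 FPKM in the WT-labelled and 2.42 to 3.27 FPKM in the KO-labelled libraries. It passed the filter only through the KO-labelled libraries, so its rise was fixed by the filter. Of the 16 macrophage markers above the filter in both groups, 5 rose and 4 fell. *Cd68* lay between 456 and 587 FPKM in all libraries, so *Col1a1*, at 228 to 361 FPKM, was present at a comparable order of magnitude. The cells that made it were not identified by these data.

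**Figure D1:**
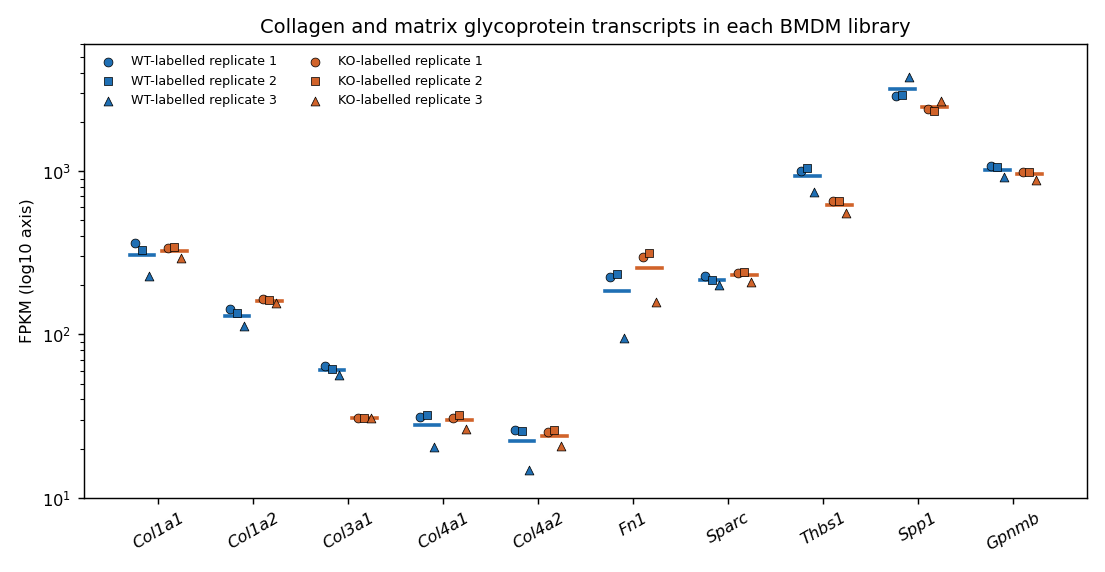
FPKM of the 10 members in each of the 6 libraries on a log10 axis; symbols mark the replicates, colours the label of the neutrophil donors and bars the group means. *Col3a1* lay at 56.4 to 63.8 FPKM in the WT-labelled and at 30.7 to 30.8 FPKM in the KO-labelled libraries, and replicate 3 was the lowest library of its group for 9 of the members in the WT-labelled and the KO-labelled libraries, but the highest for *Spp1*.

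Replicate 3 of each group stood apart by transcript length. Among tested genes with a longest transcript of 1000 to 2000 bases, the log2 level in WT-labelled replicate 3 exceeded the mean of replicates 1 and 2 by a median of 0.21, and among genes over 8000 bases it was lower, at -0.52. The KO-labelled values were 0.12 and -0.28. Among genes under 1000 bases the medians were 0.29 in the WT-labelled and -0.02 in the KO-labelled libraries. The rise towards short transcripts thus did not reach the shortest class in the KO-labelled libraries. *Fn1*, whose longest transcript has 8315 bases, deviated most, by -1.28 in the WT-labelled and -0.94 in the KO-labelled libraries. *Col4a2* followed in the WT-labelled libraries at -0.79, while the short *Spp1* transcript of 1507 bases deviated by 0.39. Results that rest on replicate 3 are given with and without it.

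**Figure D2:**
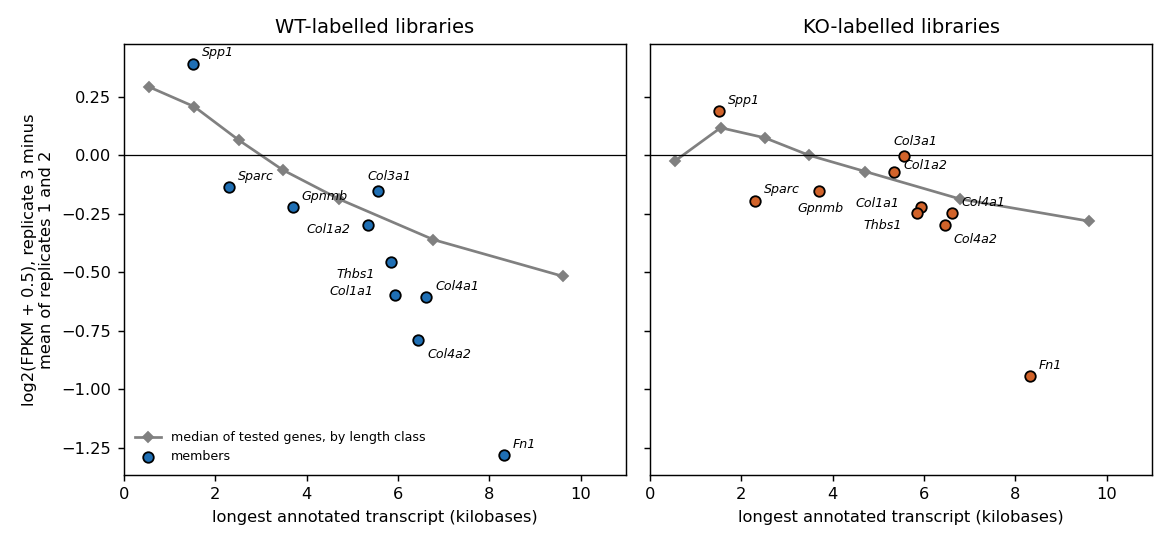
Deviation of replicate 3 from the mean of replicates 1 and 2 on the log2(FPKM + 0.5) scale against the length of the longest annotated transcript, for the members (points) and for the median of tested genes in 7 length classes (line), in the WT-labelled and the KO-labelled libraries. Long members lay below 0 and *Spp1* above it in both panels, and *Fn1* was the lowest point in each.

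Against the question whether the genotype of the neutrophil donors went with a change in macrophage matrix transcripts, 2 members fell in the KO-labelled libraries and none rose. *Col3a1* and *Thbs1* passed the test (limma on log2(FPKM + 0.5), Benjamini-Hochberg adjusted over all tested genes, threshold 0.05), and the other 8 did not. Over all tested genes, 27.1% were called higher and 10.5% lower, so 0 of 10 higher and 2 of 10 lower stand beside those shares, and the 4 members whose groups did not overlap stand beside 51.9%. The median log2 difference of the members was 0.10, and that of all tested genes was 0.19. After median-of-ratios scaling, which moved the all-gene median to 0.00, the split of higher against lower calls over all genes went from 72.0% higher to 49.3% higher, and the median of the members to -0.11. Without replicate 3 of both groups, 2 members were called higher (*Col1a2* and *Fn1*) and 3 lower (*Col3a1*, *Thbs1* and *Spp1*).

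**Figure D3:**
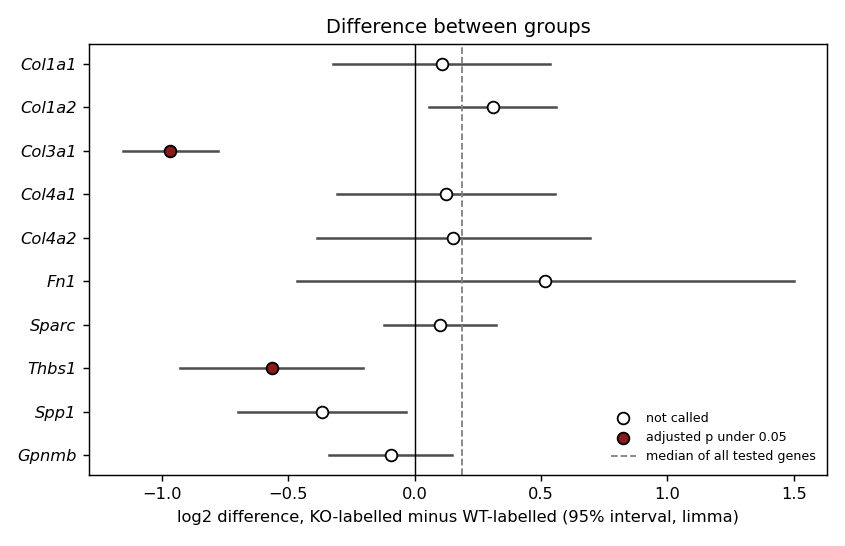
Log2 difference between KO-labelled and WT-labelled libraries for each member with its 95% confidence interval from limma; filled points passed the adjusted threshold of 0.05, and the dashed line is the median of all tested genes (0.19). *Col3a1* (-0.97) and *Thbs1* (-0.56) lay below 0, and the small positive values of *Col1a1*, *Col4a1*, *Col4a2* and *Sparc* turned negative under median-of-ratios scaling.

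*Col3a1* (ENSMUSG00000026043, chr1:45311538-45349706, plus strand, GRCm38) encodes the chain of type III collagen, the fibrillar collagen of loose tissue and early scars, and its promoter is printed above. It was measured at 63.8, 61.7 and 56.4 FPKM in the WT-labelled and at 30.8, 30.8 and 30.7 FPKM in the KO-labelled libraries. All KO-labelled libraries lay below all WT-labelled ones, and the 3 KO-labelled values were almost equal. The WT-labelled mean was 60.7 ± 3.83 FPKM and the KO-labelled mean 30.8 ± 0.0630 FPKM (SD, n = 3 libraries per group), so *Col3a1* fell by a log2 difference of -0.97 (SE 0.08, 95% confidence interval -1.15 to -0.78, limma adjusted p = 0.000197). The call held in 17 of 17 alternative fits, with limma adjusted p from 3.06e-05 to 0.00234 and log2 differences from -1.19 to -0.93.

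*Col1a1* (ENSMUSG00000001506, chr11:94936224-94953042, plus strand) encodes the α1 chain of type I collagen, the main protein of fibrotic matrix. Its levels were 361, 329.9 and 228 FPKM in the WT-labelled and 337, 344 and 292 FPKM in the KO-labelled libraries. The groups overlapped, and replicate 3 was the lowest library of each. The log2 difference of 0.11 (SE 0.18, interval -0.32 to 0.53, limma adjusted p = 0.675) was smaller than its error and turned to -0.11 after median-of-ratios scaling.

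*Col1a2* (ENSMUSG00000029661, chr6:4504814-4541544, plus strand) encodes the α2 chain that folds with the *Col1a1* product. It was measured at 142, 136 and 113 FPKM in the WT-labelled and at 165, 162 and 155 FPKM in the KO-labelled libraries. The groups did not overlap, but the log2 difference of 0.31 (SE 0.11, interval 0.06 to 0.56) missed the threshold at limma adjusted p = 0.0578. Without WT-labelled replicate 3 the difference was 0.21 with limma adjusted p = 0.0372, and without replicate 3 of both groups it was 0.23 with limma adjusted p = 0.0133.

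The 3 fibrillar chains thus did not move together. Within each library, the FPKM ratio of *Col3a1* to *Col1a2* was 0.448, 0.455 and 0.5002 in the WT-labelled and 0.187, 0.190 and 0.198 in the KO-labelled libraries. The ratio of *Col3a1* to *Col1a1* was 0.177, 0.187 and 0.247 against 0.0911, 0.0896 and 0.105. A ratio within a library does not depend on how the libraries are scaled to each other, and in both cases the groups did not overlap. With *Col1a2* as the denominator this follows from the separate levels of both genes. An exact permutation test of 3 against 3 cannot go below p = 0.1. The ratio of *Col1a1* to *Col1a2* was 2.54, 2.43 and 2.02 against 2.05, 2.13 and 1.88, with overlapping groups.

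*Col5a2*, a chain of type V collagen that is laid down within type I and III fibrils and whose gene neighbours *Col3a1*, served as a further reference. It was measured at 84.3, 80.9 and 71.6 FPKM in the WT-labelled and 74.4, 75.2 and 71.7 FPKM in the KO-labelled libraries, a log2 difference of -0.09 (SE 0.09, limma adjusted p = 0.437). The ratio of *Col3a1* to *Col5a2* was 0.757, 0.763 and 0.788 in the WT-labelled and 0.414, 0.410 and 0.428 in the KO-labelled libraries. Here too all KO-labelled libraries lay below all WT-labelled ones.

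**Figure D4:**
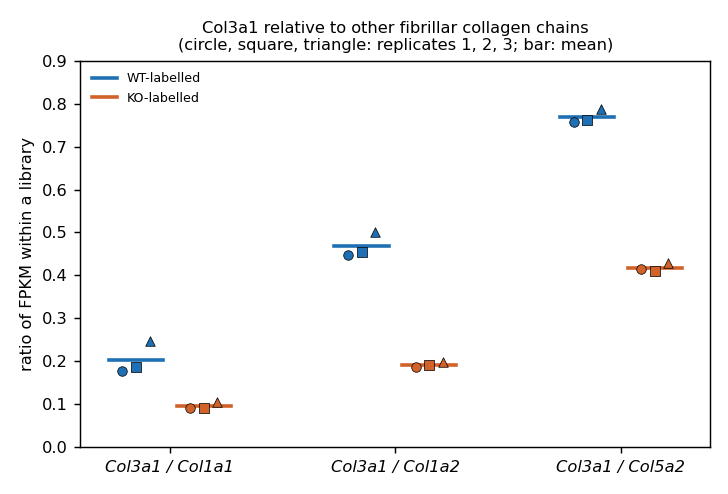
Ratio of *Col3a1* FPKM to that of *Col1a1*, *Col1a2* and *Col5a2* within each library, with group means as bars. For each of the 3 denominators all KO-labelled libraries lay below all WT-labelled ones, as with *Col1a2* at 0.187 to 0.198 against 0.448 to 0.5002.

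*Col4a1* (ENSMUSG00000031502, chr8:11198423-11312826, minus strand) and *Col4a2* (ENSMUSG00000031503, chr8:11312805-11449287, plus strand) encode the α1 and α2 chains of the common type IV collagen and lie head to head, with RefSeq start sites 21 bases apart. *Col4a1* was measured at 31.0, 31.9 and 20.5 FPKM in the WT-labelled and 30.9, 32.2 and 26.5 FPKM in the KO-labelled libraries. *Col4a2* was measured at 25.9, 25.7 and 14.7 against 25.2, 26.0 and 20.7 FPKM. The groups overlapped for both chains, and replicate 3 was the lowest library each time.

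The log2 differences were 0.12 for *Col4a1* (SE 0.18, interval -0.31 to 0.56, limma adjusted p = 0.628) and 0.15 for *Col4a2* (SE 0.23, interval -0.39 to 0.69, limma adjusted p = 0.629), and both turned negative after median-of-ratios scaling, at -0.09 and -0.06. The ratio of *Col4a1* to *Col4a2* within a library was 1.20, 1.24 and 1.39 in the WT-labelled and 1.23, 1.24 and 1.28 in the KO-labelled libraries. The paired chains therefore kept a similar ratio across the 6 libraries, with overlapping groups.

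*Fn1* (ENSMUSG00000026193, chr1:71585520-71653200, minus strand) encodes fibronectin, which links collagens to integrins on the cell surface. It was measured at 226, 235 and 94.5 FPKM in the WT-labelled and at 297, 313 and 159 FPKM in the KO-labelled libraries. Replicate 3 was far below the others in each group, the groups overlapped, and the log2 difference of 0.52 (SE 0.41, interval -0.466 to 1.5001) did not pass (limma adjusted p = 0.364). Without replicate 3 of both groups the difference was 0.40 with limma adjusted p = 0.00325, whereas leaving out WT-labelled replicate 3 alone gave 0.09 with limma adjusted p = 0.826.

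*Sparc* (ENSMUSG00000018593, chr11:55394500-55423183, minus strand) encodes a secreted protein that binds collagen. Its levels were 226, 216 and 201 FPKM in the WT-labelled and 238, 243 and 210.1 FPKM in the KO-labelled libraries. The groups overlapped and the range over all libraries was narrow. The log2 difference was 0.10 (SE 0.09, interval -0.12 to 0.32, limma adjusted p = 0.433) and became -0.11 after median-of-ratios scaling.

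*Thbs1* (ENSMUSG00000040152, chr2:118111876-118127133, plus strand) encodes thrombospondin-1, which binds CD36 and CD47 and can activate latent TGF-β. It was measured at 1003, 1037 and 743 FPKM in the WT-labelled and at 657, 657 and 554 FPKM in the KO-labelled libraries. Every KO-labelled library lay below every WT-labelled one, and replicate 3 was the lowest of each group. The WT-labelled mean was 928 ± 160.5 FPKM and the KO-labelled mean 623 ± 59.4 FPKM (SD, n = 3 libraries per group), and *Thbs1* fell by a log2 difference of -0.56 (SE 0.15, interval -0.93 to -0.20, limma adjusted p = 0.0265).

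The direction of *Thbs1* was the same in all 17 alternative fits, but its call was not. It was lost, at limma adjusted p from 0.0632 to 0.0874, when WT-labelled replicate 1 or 2 or KO-labelled replicate 1, 2 or 3 was left out, and at 0.0585 after rescaling to TPM and 0.0992 with no filter on low values. Without replicate 3 of both groups it was -0.63 with limma adjusted p = 0.000582. Its relative *Thbs2* was tested too, at a log2 difference of -0.25 with limma adjusted p = 0.140, and the ratio of *Thbs1* to *Thbs2* was 23.2, 23.0 and 21.2 against 18.4, 18.3 and 17.7 with no overlap.

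*Spp1* (ENSMUSG00000029304, chr5:104435118-104441050, plus strand) encodes osteopontin, a secreted ligand of integrins and CD44, and its promoter is printed above. It was measured at 2865, 2917 and 3792 FPKM in the WT-labelled and at 2387, 2317 and 2677 FPKM in the KO-labelled libraries. The groups did not overlap, and replicate 3 was the highest library of each, opposite to the long members. The log2 difference of -0.37 (SE 0.14, interval -0.70 to -0.03) missed the threshold at limma adjusted p = 0.0798.

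Without replicate 3 of both groups, *Spp1* differed by -0.30 with limma adjusted p = 0.00501, and after median-of-ratios scaling by -0.58 with limma adjusted p = 0.0268. It was called in 6 of its 17 alternative fits, and its direction was the same in all 17. *Gpnmb* (ENSMUSG00000029816, chr6:49036546-49070929, plus strand), a transmembrane glycoprotein of lipid-laden macrophages, was measured at 1081, 1058 and 918 FPKM against 980.4, 992 and 888 FPKM. Its groups overlapped, and the log2 difference was -0.09 (SE 0.10, interval -0.34 to 0.15, limma adjusted p = 0.506). After median-of-ratios scaling it was -0.31 with limma adjusted p = 0.0553, and with the length trend removed *Gpnmb* was called at -0.30 with limma adjusted p = 0.0188.

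Markers of other cells were read beside these results, because fewer cells of a type and less RNA per cell cannot be told apart in bulk RNA. Of 32 fibroblast markers, 26 were tested, 6 rose (23.1%) and 4 fell (15.4%), beside 27.1% higher and 10.5% lower over all tested genes. Their median log2 difference was 0.11, beside 0.19 for all tested genes, and 10 of the 32 also stand in another list. Their summed level was 443 to 574 FPKM in the WT-labelled and 512 to 569 FPKM in the KO-labelled libraries, with 2 markers listed at 0 in every library. The markers with the highest mean were *Bgn*, *Col5a2* and *Col5a1*, and none of these passed the test. After median-of-ratios scaling 3 of the 26 rose and 9 fell, with a median of -0.07.

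The fibroblast markers that were called went in both directions beside the fall in *Col3a1*. *Cxcl12*, a chemokine of stromal cells, rose by 2.22 (log2, limma adjusted p = 4.06e-05) and *Fmod*, which encodes fibromodulin, by 0.68 (limma adjusted p = 0.0166). *Igfbp5* fell by 1.43 (limma adjusted p = 0.00514), *Dcn*, the collagen-binding decorin, by 1.04 (limma adjusted p = 0.00218) and *Pdgfrb*, the receptor of pericytes and fibroblasts, by 0.68 (limma adjusted p = 0.0464), all on the log2 scale. *Dcn* was low, at 2.48, 2.49 and 3.48 FPKM in the WT-labelled and 1.06, 1.04 and 1.23 FPKM in the KO-labelled libraries.

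Of 12 mural and smooth muscle markers, 5 were tested and all 5 rose, beside the 27.1% of all tested genes called higher. Their summed level was 474 to 582 FPKM in the WT-labelled and 1022 to 1132 FPKM in the KO-labelled libraries, and none of the 12 was at 0 in all libraries. The count of 5 of 5 was the same under median-of-ratios scaling and without replicate 3 of both groups. *Acta2*, smooth muscle actin, was measured at 316, 302 and 349 against 679, 672 and 729 FPKM, a log2 difference of 1.11 (SE 0.09, limma adjusted p = 0.000195). *Tagln* rose by 0.92 (log2, limma adjusted p = 0.00319) and *Cnn1* by 1.10 (limma adjusted p = 0.000696). *Mcam* (0.83, limma adjusted p = 0.00137) and *Notch3* (1.04, limma adjusted p = 0.0124) were low in all libraries and also rose.

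The contractile transcripts therefore moved opposite to *Col3a1*. The ratio of *Col3a1* to *Acta2* was 0.202, 0.204 and 0.162 in the WT-labelled and 0.0453, 0.0459 and 0.0421 in the KO-labelled libraries. The groups did not overlap, which follows from the separate levels of both genes. The mural markers below the filter were not tested. Among them *Rgs5*, *Kcnj8*, *Abcc9* and *Vtn* stayed at or below 0.226 FPKM in every library. *Myh11* averaged 0.158 FPKM in the WT-labelled and 0.653 FPKM in the KO-labelled libraries, *Des* 0.1001 and 0.425 FPKM, and *Rgs5* 0.0757 and 0.176 FPKM. *Cspg4* went the other way, at 0.557 and 0.414 FPKM. The part of stromal cells in the levels of the fibrillar collagens, and in the fall of *Col3a1*, was not tested.

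Endothelial and spinal cord cells left little signal. Of 16 endothelial markers, 4 were tested, 1 fell and none rose, beside 10.5% lower and 27.1% higher over all tested genes. The 1 that fell, *Kdr*, averaged 0.186 FPKM in the KO-labelled libraries. It passed the filter through the WT-labelled ones, so its fall was fixed by the filter. Of the 3 markers above the filter in both groups, none was called. The 16 markers summed to 13.4 to 18.9 FPKM in the WT-labelled and 16.9 to 18.0 FPKM in the KO-labelled libraries. Most of this was *Eng*, and *Cldn5* was at 0 in 5 of 6 libraries. Of 21 spinal cord cell markers, 5 were tested and 2 rose, beside 27.1% higher over all tested genes, and after median-of-ratios scaling 1 rose. Those that rose were *Tubb3*, by 0.36 (log2, limma adjusted p = 0.0242), and *Aldh1l1* of astrocytes, by 1.02 (limma adjusted p = 0.00262). *Aldh1l1* was low, with means of 0.506 against 1.53 FPKM. The highest means were those of *Tubb3*, *Cnp* and *Mbp*, and the last 2 did not pass the test. Listed at 0 in every library were 6 markers, including *Aqp4*, which is also of astrocytes. The 21 markers summed to 26.8 to 27.8 against 34.1 to 35.2 FPKM.

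Neutrophil markers were higher in the KO-labelled libraries. Of 24 markers, 17 were tested, 14 rose (82.4%) and 1 fell (5.88%), beside 27.1% higher and 10.5% lower over all tested genes. The median log2 difference was 1.37. Of the 14 that rose, 5 averaged under 0.5 FPKM in the WT-labelled libraries and passed the filter through the KO-labelled ones, so their rise was fixed by the filter; of the 12 markers above it in both groups, 9 rose and 1 fell. Their summed level, most of it *Lyz2* that macrophages share, was 4666 to 5996 FPKM in the WT-labelled and 6449 to 7163 FPKM in the KO-labelled libraries. *Ngp* and *Ltf*, granule proteins of developing neutrophils, rose by 3.02 and 3.09 (log2, limma adjusted p = 1.13e-05 and 3.51e-06), and *Ly6g* was listed at 0 in all WT-labelled libraries and at 0.660, 0.547 and 0.403 FPKM in the KO-labelled ones. The part of neutrophil RNA in the differences of the members was not tested.

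The other chains of the collagen family gave a context for the 5 members that belong to it. Of 39 further chains, 15 were tested, 6 rose (40.0%), 1 fell (6.67%) and 8 did not pass, with a median log2 difference of 0.22. Over all tested genes 27.1% were higher and 10.5% lower, with a median of 0.19. Of the 6 that rose, 1 passed the filter only through the KO-labelled libraries. Of the 14 chains above the filter in both groups, 5 rose and 1 fell. The chain that fell was *Col5a3*, a minor type V chain, at 11.2, 10.52 and 8.58 FPKM in the WT-labelled and 1.08, 1.12 and 0.765 FPKM in the KO-labelled libraries (log2 difference -2.83, SE 0.15, limma adjusted p = 2.67e-05). It had a larger log2 difference than *Col3a1*, at a lower level. After median-of-ratios scaling 4 of the 15 chains rose and 2 fell, and with the trend by transcript length removed the balance turned, with 3 higher and 5 lower.

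The chains that rose lay far below *Col1a1* and *Col1a2* in level. *Col2a1*, the collagen of cartilage, was measured at 4.27, 3.81 and 2.93 against 11.3, 11.1 and 9.94 FPKM, a log2 difference of 1.45 (limma adjusted p = 0.00039). *Col8a1*, a short-chain collagen of vessel walls, rose by 1.21 (limma adjusted p = 0.000205) and *Col4a5*, a further type IV chain, by 1.24 (limma adjusted p = 0.00146). *Col16a1* rose by 0.51 (limma adjusted p = 0.00633). These chains were named by a rule that required groups that did not overlap, so their separation was fixed by that choice.

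Enzymes and chaperones of collagen folding and cross-linking moved in both directions. Of 34 such genes, 29 were tested, 6 rose (20.7%) and 11 fell (37.9%), beside 27.1% higher and 10.5% lower over all tested genes. The median log2 difference was -0.02, and after median-of-ratios scaling 3 rose and 12 fell. *Tgm2*, transglutaminase 2, which cross-links fibronectin and collagen, was measured at 333, 330.2 and 241 against 33.2, 33.0 and 27.0 FPKM, a log2 difference of -3.25 (limma adjusted p = 1.77e-05). *P4hb*, the disulfide isomerase subunit of prolyl 4-hydroxylase, was measured at 453, 449 and 492 against 211, 224 and 250.01 FPKM, a difference of -1.03 (limma adjusted p = 0.000328).

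The catalytic subunit *P4ha2* fell by 0.86 and the lysyl hydroxylase *Plod3* by 0.80, while *P4ha3* rose by 0.78 (log2; limma adjusted p = 0.000459, 0.00226 and 0.00511). *Lox*, the lysyl oxidase that starts collagen cross-linking, was measured at 233, 239 and 214 against 165, 158 and 165 FPKM and fell by 0.49 (limma adjusted p = 0.00355). The enzymes named here that fell did so beside *Col3a1*, while *Col1a1* and *Col1a2* did not pass the test.

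**Figure D5:**
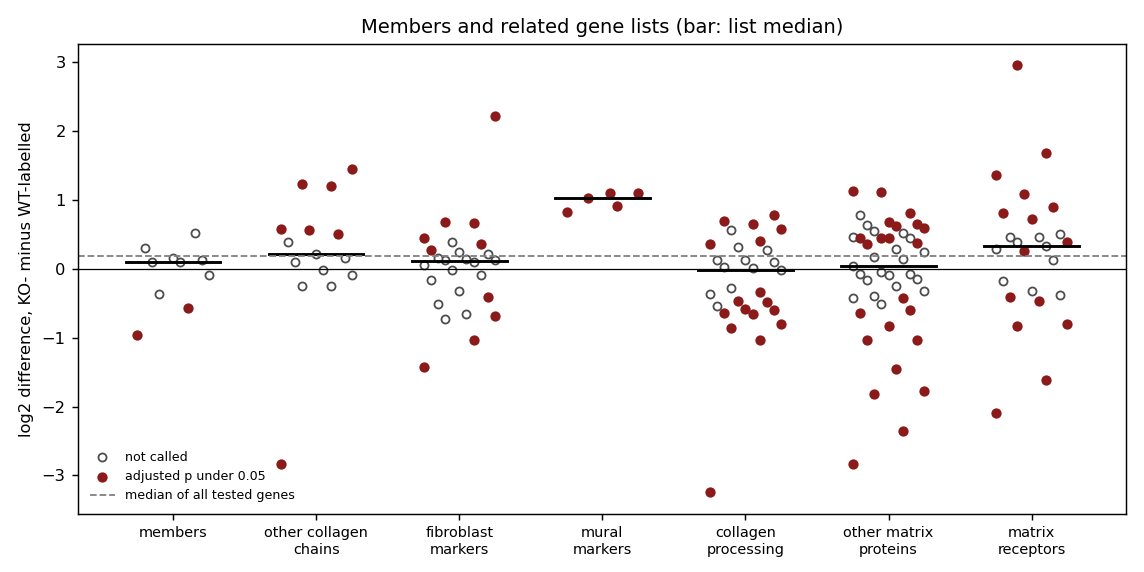
Log2 difference between KO-labelled and WT-labelled libraries for the members and 6 related gene lists; each point is a tested gene, filled where the limma adjusted p was under 0.05, with the list median as a bar and the median of all tested genes (0.19) as a dashed line. All 5 tested mural markers lay above 0, with a median of 1.04, and the median of the members was 0.10, which turned to -0.11 under median-of-ratios scaling.

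Other matrix glycoproteins and proteoglycans moved in both directions around *Fn1*, *Sparc* and *Thbs1*. Of 70 genes, 45 were tested, 12 rose (26.7%) and 11 fell (24.4%), beside 27.1% higher and 10.5% lower over all tested genes. The median log2 difference was 0.04, and after median-of-ratios scaling 4 rose and 14 fell. Of the 12 that rose, 1 passed the filter only through the KO-labelled libraries. Of the 44 genes above the filter in both groups, 11 rose and 11 fell. *Ccn2*, a matricellular protein and TGF-β target, differed by 0.04 (limma adjusted p = 0.791), and *Ccn1* rose by 0.38 (limma adjusted p = 0.00558). *Tgfbi*, a TGF-β-induced adhesion protein, fell by 1.82 (limma adjusted p = 9.82e-06), *Has2*, a hyaluronan synthase, by 2.36 (limma adjusted p = 4.21e-06), *Fgl2* by 2.84 (limma adjusted p = 3.36e-06), *Srgn*, the core protein of a granule proteoglycan, by 1.77 (limma adjusted p = 9.74e-05) and *Ccn4* by 1.46 (limma adjusted p = 0.000202).

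Receptors for these matrix proteins were tested for 25 of 33 genes, of which 9 rose (36.0%) and 6 fell (24.0%), with a median of 0.34. Over all tested genes 27.1% were higher and 10.5% lower. After median-of-ratios scaling 7 rose and 8 fell (median 0.12), and with the length trend removed 7 rose and 9 fell (median 0.06). *Cd36*, a receptor of thrombospondin-1, fell by 0.46 (log2, limma adjusted p = 0.00785) from 792, 854 and 734 FPKM to 587, 588 and 552 FPKM, in the same direction as *Thbs1*. *Itgb1*, the β1 integrin of fibronectin and collagen receptors, rose by 0.25 (limma adjusted p = 0.0346), close to the median of 0.19 over all tested genes. *Mrc1*, an endocytic receptor that takes up collagen, rose by 2.96 (limma adjusted p = 2.08e-06) and *Stab1*, a scavenger receptor that binds SPARC, by 1.68 (limma adjusted p = 0.00258). *Sdc1*, a heparan sulfate proteoglycan that binds fibronectin and thrombospondin-1, fell by 1.61 (limma adjusted p = 1.2e-05).

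The integrin chains *Itga4* and *Itgb7*, which pair in a receptor that binds fibronectin, moved apart, with *Itga4* up by 1.37 (limma adjusted p = 0.00358) and *Itgb7* at -2.09 (limma adjusted p = 0.000104). Genes of the TGF-β pathway, the best known inducer of fibrillar collagens, were all tested. Of 23, 9 rose (39.1%) and 7 fell (30.4%), with a median of 0.19, beside 27.1% higher and 10.5% lower over all tested genes. After median-of-ratios scaling 8 rose and 7 fell, with a median of -0.02. The ligands *Tgfb1* and *Tgfb3* rose by 0.55 and 1.69 and the receptor *Tgfbr2* by 1.38 (limma adjusted p = 0.00336, 0.000775 and 0.000506). Inhibitors of the pathway were among those that fell, with *Smad7* at -1.12, *Smad6* at -1.34 and *Pmepa1* at -1.72 (limma adjusted p = 0.00509, 8.88e-05 and 1.78e-05).

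Genes that mark the macrophage state with *Spp1* and *Gpnmb* were also all tested. Of 23, 8 rose (34.8%) and 9 fell (39.1%), with a median of 0.01, beside 27.1% higher and 10.5% lower over all tested genes. The lysosomal protease *Ctsd* rose by 0.35 (interval 0.09 to 0.62, limma adjusted p = 0.043), and this interval held the median of 0.19 over all tested genes. The lipoprotein lipase *Lpl* rose by 1.83 (limma adjusted p = 3.95e-05). *Clec7a* (-2.43, limma adjusted p = 3.71e-06), *Cst7* (-2.75, limma adjusted p = 0.000227) and *Fabp4* (-0.94, limma adjusted p = 0.0028) fell, while *Tfeb*, a regulator of lysosomal genes, rose by 0.79 (limma adjusted p = 0.00446). After median-of-ratios scaling 5 of the 23 rose and 10 fell.

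The genes with the profile most like a member were found for the most abundant member of each role, by the root mean square difference between profiles of FPKM divided by the gene's mean over the 6 libraries, among 11746 genes. For *Col1a1* they were *Tfip11*, *Sos1* and *Phldb1* (0.0132, 0.0213 and 0.0241). For *Col4a1* they were *Smarca4*, *Arfgef2* and *Taok2* (0.0199, 0.0216 and 0.0219). Neither set held another collagen.

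For *Thbs1* the nearest profiles were those of *Fzd7*, *Sec24d* and *Creb3l1* (0.0238, 0.0283 and 0.0293). For *Spp1* they were *H3f3b*, *Ssr4* and *Degs1* (0.0165, 0.0171 and 0.0190). The 6 libraries of a profile share the spread of replicate 3 by transcript length, so likeness here includes it.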

How the data were processed

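RNA of BMDMs was sequenced in 3 WT-labelled and 3 KO-labelled libraries. The authors deposited FPKM per Ensembl gene. The submitters' processing notes name fastp 0.17.1, HISAT2 2.1.0, R 3.4.3 and DESeq2 1.18.1, and the FPKM program, annotation and genome build were not given in the sources used here. The labels and the paper name different RNA kits, library kits and sequencers. Symbols, positions and lengths came from GENCODE M21 (GRCm38), which matched 55154 of 55335 identifiers (99.7%). Low values implied 17988700 to 20653800 fragments per library, but 40.0% to 42.2% of them lay within 0.1 of a whole fragment (20% by chance), so no count test was run. Members had at least 1749 implied fragments each.

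Genes averaging 0.5 FPKM or more were tested with limma 3.58.1 in R 4.3.3 (lmFit, eBayes with trend, two-sided) on log2(FPKM + 0.5), a scale that understates changes of low genes, with Benjamini-Hochberg adjustment over 13367 genes and a threshold of 0.05. Genes named from the lists were the 3 with the highest mean and up to 5 with the largest difference among those called at a mean of at least 1 FPKM with groups that did not overlap. *Thbs2*, *Rgs5*, *Kcnj8*, *Abcc9*, *Myh11*, *Des*, *Cspg4*, *Vtn*, *Kdr*, *Cldn5* and *Aqp4* were chosen after their values were seen. The members and lists were chosen with earlier results of these data known. Alternatives changed the pseudocount, filter, scaling, variance estimate, threshold, replicate block and libraries used. Leaving out replicate 3 of both groups and removing the length trend were added after seeing the data.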

Additional observations from a re-analysis of the deposited data

How the results depend on the processing

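*Col3a1* was called lower in all 17 alternative fits. The study's cut-offs, a fold above 2 and unadjusted p under 0.05, were laid on the main limma fit, where no member was lower (0). There *Col3a1* stood just short of that fold, at -0.97. Its log2 difference was past that fold after median-of-ratios scaling (-1.18) and upper-quartile scaling (-1.05). The study used these cut-offs with DESeq2, which was not run here, so whether *Col3a1* met the study's own rule was not tested. Leaving out each library in turn gave 0 to 1 members higher, 1 to 2 lower and a median of the members from -0.10 to 0.18, and without WT-labelled replicate 3 *Col1a1*, *Col4a1* and *Col4a2* turned negative (ranges -0.0924 to 0.239, -0.0780 to 0.235 and -0.109 to 0.288). With no filter on low values 1 member was lower. Under median-of-ratios scaling the median of the members was -0.11 and *Col1a1* (-0.109), *Col4a1* (-0.0885), *Col4a2* (-0.0574) and *Sparc* (-0.115) reversed. With the length trend removed, 4 members were lower (*Col3a1*, *Thbs1*, *Spp1* and *Gpnmb*), the median was -0.12, and *Col1a1* (-0.121), *Col4a1* (-0.109), *Col4a2* (-0.0782) and *Sparc* (-0.0911) reversed. Without replicate 3 of both groups 2 members were higher, and *Col1a1* (-0.0182) and *Col4a2* (-0.00944) reversed. The share of higher among all calls was 72.0%, 63.6% after upper-quartile scaling, 49.3% after median-of-ratios scaling and 47.8% with the length trend removed. The genes of the related lists that were called kept their sign under both scalings, after rescaling to TPM and with the length trend removed (0 sign changes). The cause of these shifts was not tested.

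The groups share replicate numbers, but same-numbered libraries deviated together with correlations of 0.12, 0.04 and 0.26, so the numbers were not taken to pair the libraries. With the replicate block, 2 members were higher (*Col1a2* at limma adjusted p = 0.0258 and *Fn1* at 0.0105), and *Spp1* was lower at 0.0144. With 3 libraries per group and the deviation of replicate 3 by transcript length, the intervals of *Fn1*, *Col4a1*, *Col4a2* and *Col1a1* were the widest among the members that were not called, and a p that missed the threshold does not show that their levels were alike.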

Other observations

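*Serpinh1*, the collagen-specific chaperone, was measured at 58.5, 146 and 42.9 FPKM in the WT-labelled and at 65.3, 51.0 and 51.1 FPKM in the KO-labelled libraries. WT-labelled replicate 2 stood above all others, the groups overlapped, and the gene was singled out after its values were seen.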
